A study of Mus musculus with 6 samples.

Results

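The adult alpha and beta globin genes were described in circulating red cells of mice heterozygous for the C587R allele of Nxf1 and of wild-type littermates. The members were taken from the files by their symbols. Of 5 genes on the list, 4 were analysed among the 27179 genes of each count file, namely Hba-a1, Hba-a2, Hbb-bs and Hbb-b1, and the other was not analysed here. The protein made from Nxf1 carries mature messenger RNA out of the nucleus. There were 3 Nxf1+/C587R libraries and 3 Nxf1+/+ libraries, all on the BalB/c background. Each library held polyadenylated RNA of erythrocytes taken by cardiac puncture from 1 animal, pelleted through Ficoll and checked for platelets, leukocytes and nucleated cells by flow cytometry. Each of 3 labelled batches held 1 library of either genotype, and the mutants were males, while the sex of the littermates is not stated separately. The sources used here give no ages, and counts per gene do not tell the mutated copy of Nxf1 from the intact one.

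Hemoglobin is assembled from alpha-type and beta-type chains in equal number, each holding a heme. In the mouse the alpha chains are made from 2 neighbouring genes on chromosome 11 and the beta chains from a cluster on chromosome 7. Free alpha chains are unstable and harm red cells, and for that reason the balance of alpha and beta chains is a standard readout of red cell health. Circulating reticulocytes and red cells have no nucleus and carry messenger RNA made earlier, most of it for globins.

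Each pair of genes is nearly identical in the reference genome, which limits what a count can say of a single copy. In mm10 the annotated Hba-a1 and Hba-a2 transcripts lie on the plus strand of chromosome 11, at chr11:32283511-32284465 and chr11:32296489-32297298, with 3 exons each. Their coding sequences of 429 bases, stop codon included, differ at 1 base, written as C381T with Hba-a1 first and positions counted from 1 at the start codon. That base lies in exon 3, at position 32284343 in Hba-a1 and 32297160 in Hba-a2. Coding positions 351 to 410 are shown for both copies because they hold the only coding base that separates them in mm10, in capitals. The BalB/c sequence of these genes was not examined.
Hba-a1: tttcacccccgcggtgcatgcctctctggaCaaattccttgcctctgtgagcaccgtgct
Hba-a2: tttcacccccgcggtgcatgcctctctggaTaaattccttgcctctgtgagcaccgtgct

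The beta pair is just as close. Hbb-bs lies on the minus strand at chr7:103826534-103827928, and its neighbour in the mm10 annotation is Hbb-bt, at chr7:103812524-103813996 on the same strand. Both have 3 exons and a coding sequence of 444 bases, and they differ at 1 base, C417T with Hbb-bs first, in exon 3. It lies at position 103826692 in Hbb-bs and 103812683 in Hbb-bt. Positions 385 to 444 are shown for the same reason, with that base in capitals.
Hbb-bs: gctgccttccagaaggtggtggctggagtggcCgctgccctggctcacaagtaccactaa
Hbb-bt: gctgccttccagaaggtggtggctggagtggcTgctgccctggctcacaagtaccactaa

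Of the 50-base windows of the Hba-a2 transcript, 86.9% occurred unaltered in the Hba-a1 transcript, and 67.5% of Hba-a1 windows in that of Hba-a2, whose annotated transcript is shorter. For Hbb-bs, 65.8% of windows occurred in the Hbb-bt transcript, and 58.3% of Hbb-bt windows in that of Hbb-bs. Of 380 windows of the Hba-a1 coding sequence, 0 occurred in that of Hbb-bs. On that measure alpha and beta sequence was distinct, while most windows within a pair were not.

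The row called Hbb-b1 (Entrez gene 15129) has a further limit. The rows of the files follow the order of genes along the chromosome, and this row stands next to Hbb-bs, where the assembly has Hbb-bt. Its counts may therefore be those of the second adult beta locus of the assembly. The assembly comes from C57BL/6J, which is known to carry the s haplotype of this cluster with Hbb-bs and Hbb-bt, whereas BALB/c mice are known to carry the d haplotype with Hbb-b1 and Hbb-b2. On that background both beta rows would hold reads of one haplotype placed on the loci of another, and how the reads were divided between them was not tested.

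Total counts ran from 14636739 to 15790336 per library, and the 4 genes took 88.1% to 89.2% of them. The 95% Wilson interval of a gene's share in 1 library was at most 0.0462 points wide, and it covers counting error only. All 10 red cell markers on a list were detected, with Alas2 the most abundant. Nxf1 had 9, 7 and 11 counts in mutant cells and 15, 10 and 20 in wild-type cells, close to the limit of detection (edgeR log2 fold change −0.21, adjusted p = 0.853).

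The alpha genes took a slightly smaller part of the counts in mutant red cells. In bulk RNA a change in the number of contributing cells and a change in RNA per cell cannot be told apart. Hba-a1, one of the adult alpha globin genes, took 21.5%, 21.2% and 21.1% of counts in the 3 mutant libraries and 22.0%, 21.7% and 21.8% in wild-type cells. Every mutant library was below every wild-type library. The means were 21.3% ± 0.175 in mutant cells and 21.8% ± 0.156 in wild-type cells (SD, n = 3 each).

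Hba-a2, the alpha copy given more counts, took 28.2%, 28.3% and 28.3% of counts in mutant cells and 29.5%, 28.5% and 29.3% in wild-type cells. How reads were divided between the alpha copies was not tested. The groups did not overlap, although wild-type library 2 lay close to the mutants. The means were 28.3% ± 0.0902 in mutant cells and 29.1% ± 0.503 in wild-type cells (SD, n = 3 each). The wild-type spread came mostly from that library.

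Of the beta rows, Hbb-bs was set apart between the genotypes and Hbb-b1 was not, with the division of reads between them not tested. Hbb-bs took 21.0%, 20.8% and 20.5% of counts in mutant cells and 19.3%, 19.6% and 18.7% in wild-type cells, with every mutant library above every wild-type library. Its means were 20.8% ± 0.293 in mutant cells and 19.2% ± 0.469 in wild-type cells (SD, n = 3 each), a difference of 1.58 points. Within batches 1, 2 and 3 the mutant share of Hbb-bs was higher by 1.74, 1.22 and 1.79 points.

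Hbb-b1 took 18.5%, 19.0% and 18.9% of counts in mutant cells and 18.0%, 19.0% and 18.3% in wild-type cells. These ranges overlapped, since wild-type library 2 was the highest of all 6. Its means were 18.8% ± 0.275 in mutant cells and 18.4% ± 0.537 in wild-type cells (SD, n = 3 each). Within batches 1, 2 and 3 the difference was 0.504, −0.0516 and 0.601 points, so 1 batch went the other way.

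**Figure D1:**
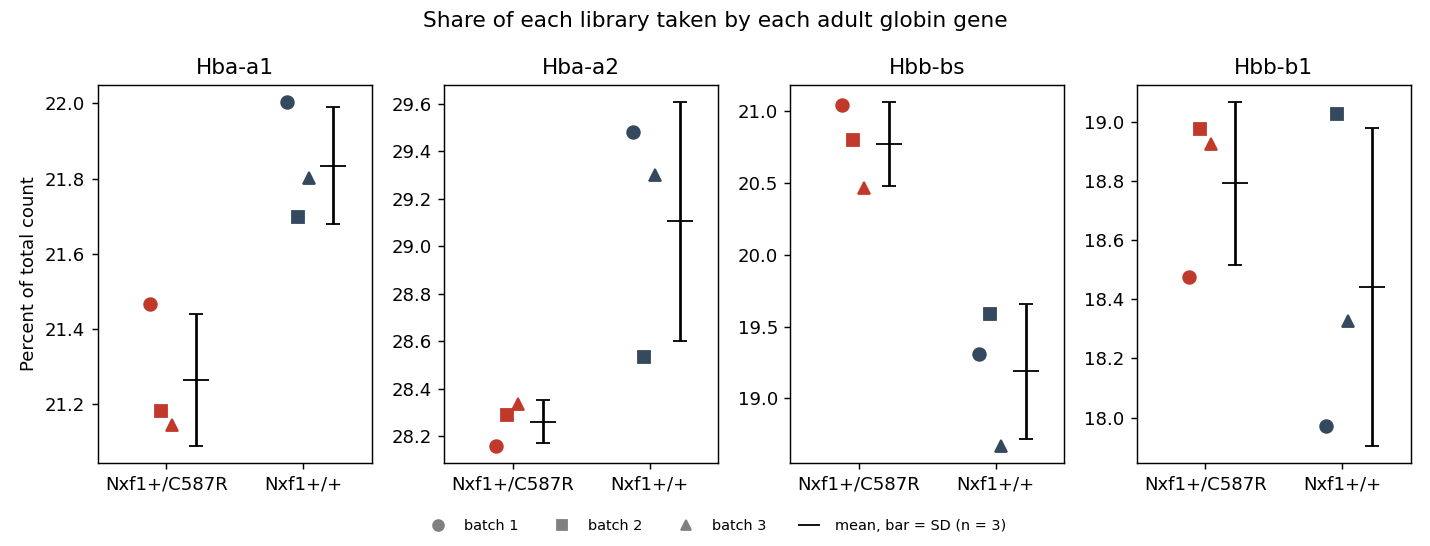
Each panel plots the percent of the total count (vertical axis, not starting at 0 and different in each panel) taken by 1 adult globin gene in each library, with Nxf1+/C587R left of Nxf1+/+, symbols for the batch, and mean and SD (n = 3) beside the points. The mutant points lie below wild type for Hba-a1 and Hba-a2, above it for Hbb-bs, and overlap it for Hbb-b1.

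With 3 libraries against 3, an exact two-sided permutation of a share cannot give a p below 0.1. Exact permutation p was 0.1 for Hba-a1, Hba-a2 and Hbb-bs and 0.4 for Hbb-b1 (n = 3 each). Such separation was common for lower shares and less so for higher ones. Of 2823 genes tested, 31.5% had all mutant shares below all wild-type shares, and 5.31% had all mutant shares above. The 2 alpha genes are to be read against the first of these values and Hbb-bs against the second. Shares of 1 total are not independent, so a larger beta share by itself lowers the alpha share.

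Per kilobase of the gene lengths in the files, which are 559 and 563 bases for Hba-a1 and Hba-a2 and 639 and 626 for Hbb-bs and Hbb-b1, the order of the 4 levels could be compared. Hba-a2 held 33.3% ± 0.155 of the summed counts per kilobase in mutant cells and 34.4% ± 0.644 in wild-type cells. Hba-a1 held 25.2% ± 0.193 in mutant cells and 26.0% ± 0.186 in wild-type cells. By these counts, both alpha copies stood above both beta copies in every library.

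Hbb-bs held 21.6% ± 0.271 in mutant cells and 20.0% ± 0.415 in wild-type cells (SD, n = 3 each). Hbb-b1 held 19.9% ± 0.303 in mutant cells and 19.6% ± 0.567 in wild-type cells (SD, n = 3 each). In the mutants the ranges of the beta copies were apart, at 21.3% to 21.8% for Hbb-bs and 19.6% to 20.1% for Hbb-b1. In wild type they overlapped, at 19.5% to 20.4% for Hbb-bs and 19.1% to 20.2% for Hbb-b1, so the last places in the order were not separated there. These values assume that reads were counted over the whole gene length.

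The ratio of beta to alpha counts was higher in every mutant library than in any wild-type library, although an exact permutation of 3 libraries against 3 cannot give a p under 0.1. The ratio of Hbb-bs plus Hbb-b1 to Hba-a1 plus Hba-a2 was 0.796, 0.804 and 0.796 in mutant libraries and 0.724, 0.769 and 0.724 in wild-type libraries. The mutants lay close together, above every wild-type library, and wild-type library 2 stood apart from the other wild-type libraries. Within batches 1, 2 and 3 the mutant ratio was higher by 0.0723, 0.0354 and 0.0721. This ratio does not depend on scaling or on how counted reads were divided within a pair, but it does depend on any multi-mapped reads that were left out, whose number is unknown.

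Per kilobase the ratio was 0.709 ± 0.00402 in mutant cells and 0.656 ± 0.0229 in wild-type cells (SD, n = 3 each). Alpha counts thus exceeded beta counts in both genotypes on that scale. Reads lost to multiple mapping may differ between the pairs, so this does not show which message was in excess. On the log2 scale of the count ratio the mean difference was 0.11. By exact two-sided permutation p was 0.1 (n = 3 each), the lowest this design allows. Exact sign flips within the 3 batches gave p = 0.25, again the lowest allowed.

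Of the mean difference of 0.0599 in that ratio, the larger part was in the counts of the Hbb-bs row. How reads were divided between the beta rows was not tested, so this need not be a difference between genes. The ratio of Hbb-bs to alpha counts was 0.424, 0.420 and 0.414 in mutant cells and 0.375, 0.390 and 0.365 in wild-type cells, without overlap. The ratio of Hbb-b1 to alpha counts was 0.372, 0.384 and 0.382 in mutant cells and 0.349, 0.379 and 0.359 in wild-type cells, with overlap. The mean differences were 0.0426 for Hbb-bs and 0.0173 for Hbb-b1. Exact two-sided permutation p was 0.1 with Hbb-bs and 0.2 with Hbb-b1 (n = 3 each).

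Within the beta pair, counts of Hbb-bs over those of Hbb-b1 gave 1.14, 1.10 and 1.08 in mutant cells and 1.07, 1.03 and 1.02 in wild-type cells. The groups were apart by a small margin, from 1.081 in the lowest mutant library to 1.074 in the highest wild-type library. The within-batch differences were close to each other, at 0.0648, 0.0669 and 0.0624 (exact permutation p = 0.1, two-sided, n = 3 each). In both genotypes the ratio was highest in batch 1 and lowest in batch 3.

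Within the alpha pair no difference was seen beyond the spread. Counts of Hba-a2 over those of Hba-a1 gave 1.31, 1.34 and 1.34 in mutant cells and 1.34, 1.32 and 1.34 in wild-type cells. The groups overlapped, the batches went in different directions with differences of −0.0280, 0.0203 and −0.00410, and the exact two-sided permutation p was 0.6 (n = 3 each).

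**Figure D2:**
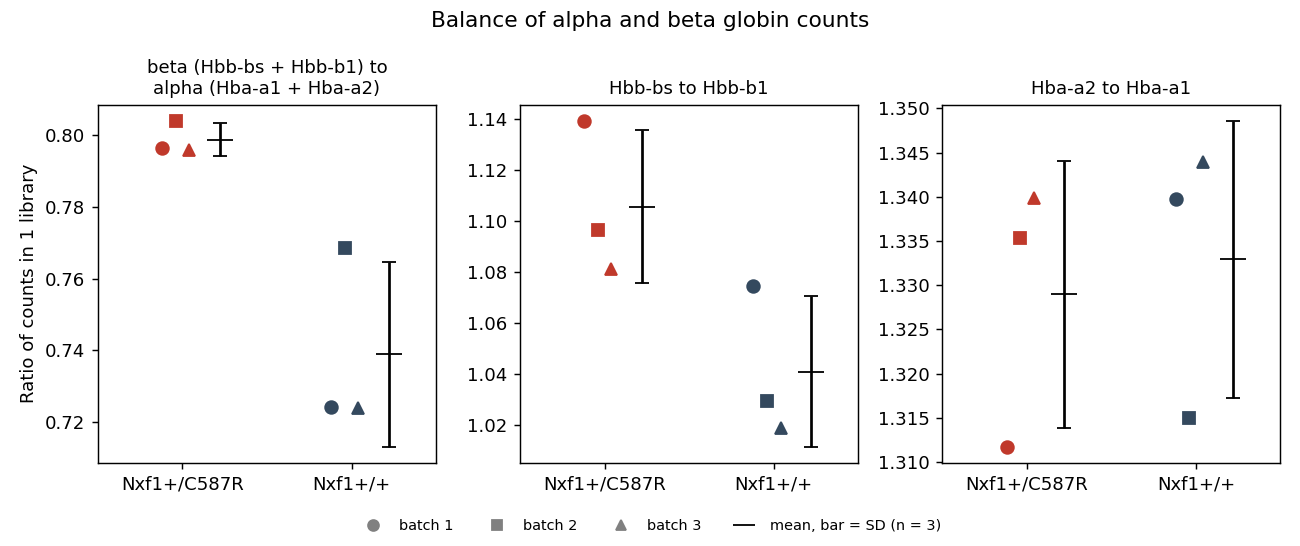
Each panel plots a ratio of counts within 1 library (vertical axis, not starting at 0), with Nxf1+/C587R left of Nxf1+/+, symbols for the batch, and mean and SD (n = 3). The beta to alpha ratio lies between 0.796 and 0.804 in mutant cells and between 0.724 and 0.769 in wild-type cells, the ratio within the beta pair is separated by a small margin, and that within the alpha pair overlaps.

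The fit across all genes gave a second view, in which globins are set against a typical gene and not against the sum of other transcripts. That sum moved little. Counts outside the adult globin genes analysed took 10.9% of the total in mutant cells and 11.4% in wild-type cells (means, n = 3 each). The log2 ratio of these means was −0.067. The fit used TMM scaling, which assumes that most genes do not change. Levels are given as CPM, the count divided by the scaled library size and set to a common size. The TMM factors were 0.718, 0.779 and 1.06 in mutant cells and 1.23, 1.11 and 1.23 in wild-type cells. TMM-scaled Hbb-bs was 293353, 267369 and 193837 CPM in mutant cells and 157552, 176263 and 151773 CPM in wild-type cells. Mutant library 3, with the highest factor of the mutants, was the lowest mutant library and still above wild type.

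Hbb-bs was the only member called, with a log2 fold change of 0.64 (SE 0.19, edgeR adjusted p = 0.0490). Of all genes tested, 5.99% were called higher. Its call was lost with batch as a term (log2 0.62, edgeR adjusted p = 0.0517) and when a single library was left out, except mutant 3 (edgeR adjusted p 0.0876 to 0.282). Hba-a1, Hba-a2 and Hbb-b1 had log2 fold changes of 0.48 (SE 0.19), 0.48 (SE 0.19) and 0.54 (SE 0.19), none past the test (edgeR adjusted p = 0.156, 0.161 and 0.0947). Without mutant library 3 all 4 genes passed, with log2 fold changes of 0.70 to 0.87 (edgeR adjusted p 9.00e-05 to 0.000245), beside 7.48% of 3263 genes called higher. With no low-count filter all 4 were called higher by edgeR, beside 2.33% of 16396 genes. DESeq2 called Hbb-bs and Hbb-b1 higher, beside 6.27% of genes, and with batch as a term it called Hbb-bs but not Hbb-b1 (log2 0.59, DESeq2 adjusted p = 0.0541).

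**Figure D3:**
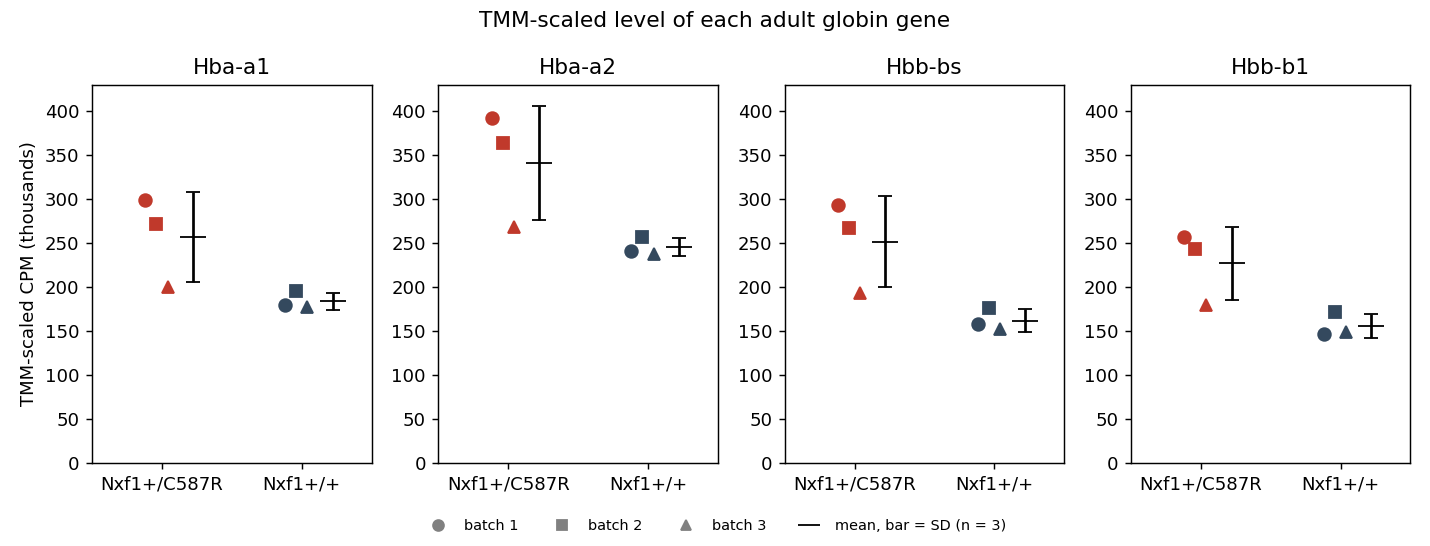
Each panel plots the TMM-scaled level of 1 adult globin gene on a CPM scale (vertical axis, starting at 0, unit in its label), with Nxf1+/C587R left of Nxf1+/+, symbols for the batch, and mean and SD (n = 3). Mutant library 3 (triangle) lies well below the other mutant libraries in all 4 panels and above wild type.

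Total counts without scaling factors gave another size and, for the alpha genes, another direction. Hbb-bs had a log2 fold change of 0.11 (SE 0.03, edgeR adjusted p = 0.0296), where 4.07% of genes were called higher. It remained called with batch as a term (edgeR adjusted p = 0.000770) and lost its call when a single library was left out, except mutant 3 (edgeR adjusted p 0.0503 to 0.144). Hbb-b1 had 0.03 (SE 0.03, adjusted p = 0.562), and Hba-a1 and Hba-a2 had −0.04 each (SE 0.03, adjusted p = 0.326 and 0.269). Over the genes tested, the median log2 fold change was −0.53 with total counts and −0.06 with TMM.

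Relative to that median, the 4 genes stood higher under both scalings. Hbb-bs lay 0.69 above the median gene with TMM and 0.65 above it with total counts, and Hbb-b1 lay 0.60 and 0.56 above it. Hba-a1 lay 0.54 above it with TMM and 0.49 with total counts, and Hba-a2 lay 0.53 and 0.49 above it. A change of scaling moves all genes alike, so the closeness of these values under both scalings follows from the subtraction. Standing above the median was not particular to globins. With TMM the heme supply genes Slc25a37 and Alas2 had log2 0.51 and 0.41, neither called, while Urod had −0.54. The share of all genes lying as far above the median is not given.

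**Figure D4:**
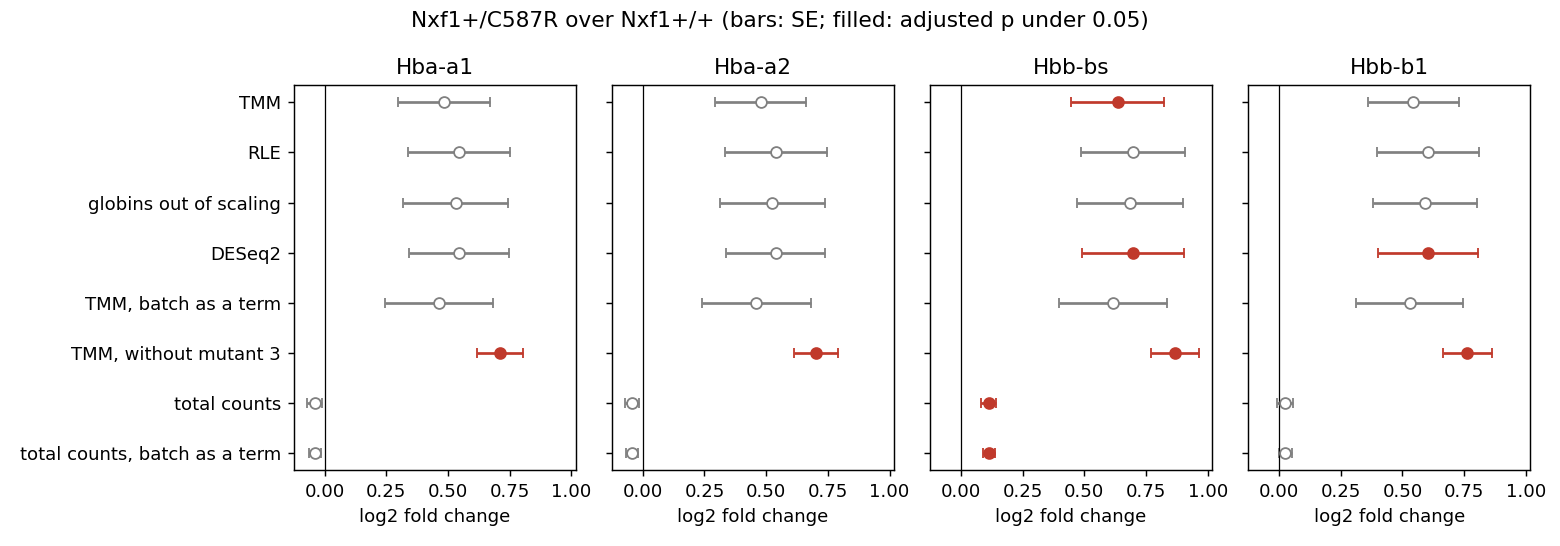
Each panel plots the log2 fold change of 1 gene, Nxf1+/C587R over Nxf1+/+ (horizontal axis), under 8 settings of scaling, tool, batch term or libraries, with SE as bars and filled symbols for an adjusted p under 0.05. Values near 0.5 to 0.9 were obtained with scaling factors, against −0.04 to 0.11 with total counts, and Hbb-bs is the highest of the 4 genes in each setting.

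Whether the shares depend on the promoters was not tested, and the promoters are shown as a description only. They are the 250 bases before the RefSeq start (GRCm38.p6), 5′ to 3′ on the strand of the gene. Capitals mark matches on either strand to GATAAG, the core bound by GATA factors, CACCC, bound by Klf1 and related factors, CCAAT and the TATA-type motif ATATAA. The intervals are chr11:32283422-32283671 and chr11:32296242-32296491 for Hba-a1 and Hba-a2 (plus strand), and chr7:103827929-103828178 and chr7:103813924-103814173 for Hbb-bs and Hbb-bt (minus strand). The sequence under the name Hbb-bt is that of the locus at the place of the Hbb-b1 row. Both beta sequences are from the assembly, with the s haplotype, and not from the d haplotype that BALB/c mice are known to carry.
Hba-a1: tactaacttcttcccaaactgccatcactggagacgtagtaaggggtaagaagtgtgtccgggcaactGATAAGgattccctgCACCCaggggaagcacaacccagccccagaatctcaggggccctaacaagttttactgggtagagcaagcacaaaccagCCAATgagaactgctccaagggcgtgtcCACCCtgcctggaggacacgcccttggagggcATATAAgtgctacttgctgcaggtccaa
Hba-a2: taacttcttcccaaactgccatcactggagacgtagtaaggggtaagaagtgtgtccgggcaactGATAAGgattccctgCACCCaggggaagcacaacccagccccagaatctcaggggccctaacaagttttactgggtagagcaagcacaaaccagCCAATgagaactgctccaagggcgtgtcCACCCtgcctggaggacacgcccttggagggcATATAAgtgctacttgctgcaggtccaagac
Hbb-bs: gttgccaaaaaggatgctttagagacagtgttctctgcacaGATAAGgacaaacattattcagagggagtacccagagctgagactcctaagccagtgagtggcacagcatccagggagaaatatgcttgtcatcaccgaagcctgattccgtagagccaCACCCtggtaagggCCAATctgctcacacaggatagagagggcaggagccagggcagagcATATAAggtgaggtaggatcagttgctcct
Hbb-bt: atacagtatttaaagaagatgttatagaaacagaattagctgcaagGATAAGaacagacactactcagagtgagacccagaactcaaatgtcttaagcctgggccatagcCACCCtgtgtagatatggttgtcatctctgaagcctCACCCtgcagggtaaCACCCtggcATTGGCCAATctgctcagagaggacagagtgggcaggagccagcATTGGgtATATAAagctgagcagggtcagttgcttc

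The alpha promoters were identical over 247 bases once shifted by the 3 bases between their annotated starts. The beta promoters of the assembly matched at 51.0% of 249 bases in an alignment without gaps. All 4 windows held each of the 4 motifs. Among 27025 promoter windows of this length, GATAAG was found in 6.60%, ATATAA in 9.51%, CCAAT in 34.5% and CACCC in 51.3%. Hbb-bt had 3 CACCC matches and Hbb-bs had 1, at positions −90 to −86 before the start. No matches overlapped. These matches describe letters and do not show binding. In GENCODE M21 the transcripts of Hba-a1, Hba-a2 and Hbb-bt start upstream of the RefSeq starts used here.

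Genes that act on globin messages and chains gave no called member with TMM, whereas total counts, with which 8.68% of all genes were called lower, gave some. Of 14 transcription factors of the globin loci, 11 were tested, with 0 higher, 0 lower and a median log2 fold change of −0.04 (edgeR, TMM), beside −0.06 over all genes and 1.06% of all genes called lower. The nearest was Zfpm1, which encodes the GATA1 partner FOG1, with 20, 19 and 30 counts in mutant cells and 48, 46 and 57 in wild-type cells (log2 −0.61, edgeR adjusted p = 0.208). Tal1, an erythroid transcription factor, had 15, 12 and 16 counts in mutant cells and 24, 31 and 41 in wild-type cells (log2 −0.63, edgeR adjusted p = 0.305). Both were called lower with total counts, as the 2 members of this list that were (log2 −1.09 and −1.12, edgeR adjusted p = 0.0391 and 0.0492). Their shares of the total count did not overlap between the groups, beside 31.5% of all genes with every mutant share below every wild-type share. Sox6, on the same list and with few counts, went the other way with TMM (log2 0.49, edgeR adjusted p = 0.558). With total counts it had log2 −0.01.

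Of 12 genes of globin message binding and heme-regulated translation, 11 were tested and 0 were called, with a median of −0.13. The nearest to the threshold was Pcbp2, whose protein binds and stabilises alpha globin mRNA in human cells. It had 55, 42 and 52 counts in mutant cells and 112, 109 and 136 in wild-type cells, a log2 fold change of −0.72 (SE 0.23, edgeR adjusted p = 0.0650). It passed with batch as a term in edgeR (adjusted p = 0.0435) but not in DESeq2 with that term (adjusted p = 0.589) or without it (0.201). With total counts it passed (log2 −1.23, edgeR adjusted p = 0.00469), as 1 of 6 members of that list called lower. Over all genes tested, 8.68% were called lower in that setting. The median of the list was then −0.64, beside −0.53 over all genes. Atf4, a transcription factor of the integrated stress response, had 10, 9 and 12 counts in mutant cells and 34, 17 and 29 in wild-type cells (log2 −0.83, edgeR adjusted p = 0.187). It too was called lower with total counts (log2 −1.32, edgeR adjusted p = 0.0349).

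Of 14 chaperone and clearance genes, 8 were tested and 0 were called with TMM (median −0.08), while 2 were called lower with total counts. Usp15, a deubiquitinase, had 288, 348 and 362 counts in mutant cells and 526, 682 and 677 in wild-type cells (log2 −0.40, edgeR adjusted p = 0.25). Prdx2, an abundant red cell peroxiredoxin, had 811, 1055 and 1291 counts in mutant cells and 1360, 2025 and 2164 in wild-type cells (log2 −0.31, edgeR adjusted p = 0.416). These were the 2 called with total counts (log2 −0.89 and −0.78, edgeR adjusted p = 0.00314 and 0.0158). Over all genes tested, 8.68% were called lower in that setting. The median of the list was then −0.60, beside −0.53 over all genes. Usp15 also passed among genes with a mean count of at least 50 (log2 −0.53, edgeR adjusted p = 0.0290), and Prdx2 without wild-type library 1 (log2 −0.51, edgeR adjusted p = 0.0463). As shares of the total count, Usp15 did not overlap between the groups, which is to be read against the same 31.5% of genes, and Prdx2 did overlap. Hspa9, on the same list and with few counts, went the other way (log2 0.69 with TMM, edgeR adjusted p = 0.476). With total counts it had log2 0.18.

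Of 15 genes of heme supply, 12 were tested and 0 were called with TMM (median −0.15), while 1 was called lower with total counts. The nearest of these was Slc25a37, the mitochondrial iron importer mitoferrin, with 3258, 3318 and 3225 counts in mutant cells and 3550, 2951 and 3596 in wild-type cells. Its groups overlapped in counts. TMM gave log2 0.51 and total counts −0.01 (edgeR adjusted p = 0.0681 and 0.937). Alas2, the first enzyme of heme synthesis in red cells, had 393207, 385072 and 399273 counts in mutant cells and 418226, 411608 and 461931 in wild-type cells. TMM gave log2 0.41 for it and total counts −0.10 (edgeR adjusted p = 0.200 and 0.154). Urod, a later enzyme of heme synthesis, had 58, 93 and 125 counts in mutant cells and 164, 183 and 220 in wild-type cells (log2 −0.54 with TMM, edgeR adjusted p = 0.160). It was the gene called lower with total counts (log2 −1.0, edgeR adjusted p = 0.0253). Over all genes tested, 8.68% were called lower in that setting, close to the 1 of 12 here.

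Genes outside the globins were ranked by their likeness to the alpha or the beta sum over the 6 libraries, and those with the highest values are named. Likeness was the Pearson correlation of log2 CPM of the total count among 386 genes with a mean count of at least 100, with 0.5 added to each count, as a description. The nearest to the alpha sum were Isca1 (r = 0.981), which acts in iron-sulfur cluster assembly, Cox8a (0.977), a respiratory chain subunit, and the transcription factor gene Jund (0.947). Isca1 had 401, 391 and 382 CPM in mutant cells and 459, 421 and 441 CPM in wild-type cells. Like the alpha sum, Isca1, Cox8a and Jund were each lower in every mutant library than in any wild-type library. Of all genes tested, 31.5% were so. Their r therefore includes the genotype split, and likeness within a genotype was not tested.

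The nearest to the beta sum were Alb (r = 0.928), which encodes serum albumin, the mitochondrial ribosomal RNA gene mt-Rnr2 (0.921) and Trf (0.916), which encodes transferrin. Alb had 490, 1136 and 800 counts in mutant cells and 0, 1 and 0 in wild-type cells. Trf had 189, 427 and 242 counts in mutant cells and 2, 18 and 12 in wild-type cells. All 6 libraries enter each of these values, which share a total and a genotype split, and Alb and Trf are on the hepatocyte list. With so few wild-type counts, Alb and Trf met the minimum mean count through the mutant libraries. Their r therefore largely restates the genotype split and does not show that they follow the beta share within a genotype. The spread of r over all compared genes is not given.

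Of the marker lists of other cells, the hepatocyte list was the only one with members called with TMM, 10 of 12 and all higher. Over all genes tested, the share called higher was 5.99%. The 12 hepatocyte markers, all detected, summed to 107 to 239 CPM of the total count in mutant cells and 0.823 to 5.94 CPM in wild-type cells. With so few wild-type counts, they entered the test mainly through the mutant libraries. The direction of their calls was therefore largely set by the filter. The 10 red cell markers summed to 28977 to 31434 CPM in mutant cells and 32099 to 34485 CPM in wild-type cells. Genes of nucleated precursors (8 markers) summed to 34.8 to 48.8 CPM in mutant cells and 49.9 to 77.0 CPM in wild-type cells.

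The 10 leukocyte markers summed to 83.1 to 159 CPM in mutant cells and 138 to 165 CPM in wild-type cells. The 9 platelet markers summed to 5.25 to 13.8 CPM in mutant cells and 10.9 to 20.9 CPM in wild-type cells. Exocrine pancreas markers, 10 in all, summed to at most 0.0683 CPM in mutant cells and 20.3 CPM in wild-type cells. That highest value was from wild-type library 1. Every marker on these lists had at least 1 count in some library, and their part in the globin balance was not tested.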

How the data were processed

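Polyadenylated RNA of erythrocytes was sequenced from 3 Nxf1+/C587R and 3 Nxf1+/+ mice. The authors deposited raw counts per gene, 1 file per library with Entrez number and gene length, per the file headers. CASAVA 1.8.2, Subread, featureCounts and build mm10 are named in the submitters' processing notes; other versions, the strand setting and the treatment of multi-mapped reads are not given in the sources used here. Symbols came from RefSeq for 25275 genes. The members and gene lists were chosen with earlier results of these data known.

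Counts were fitted with edgeR 4.0.16 (R 4.3.3; quasi-likelihood F test, robust, TMM, filterByExpr, genotype as the only term), with Benjamini-Hochberg adjustment over 2823 genes and calls at an adjusted p under 0.05. Standard errors were taken from the fold change and the square root of F. Exact permutation of libraries (two-sided, SciPy 1.17.1) was used for ratios and shares. Alternatives were other scalings and filters, DESeq2 1.42.0, limma-voom (limma 3.58.1), batch as a term, and leaving out libraries or batches. The fits were tested on simulated counts with as many genes raised as lowered. That simulation was not set up to test the choice of scaling. The labelled batch pairs the libraries, although same-batch deviations correlated at −0.116, −0.0858 and −0.0443. Named genes were the members, Nxf1, listed genes among those with the smallest p, the most abundant markers, of which Alas2 and Alb are given, and the 3 genes most like the alpha or the beta sum. Promoters came from RefSeq and coding sequences from GENCODE M21. Results planned for the gene not analysed here were left out. In the likeness measure 0.5 was added to each count, a value chosen after seeing that counts of 0 otherwise set the result for Alb.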

Additional observations from a re-analysis of the deposited data

How the results depend on the processing

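The beta to alpha ratio, its parts and the alpha and beta shares kept their direction under every alternative run, and leaving out 1 library gave differences of 0.0524 to 0.0748 for the beta to alpha ratio. Within the alpha pair the ratio changed sign without mutant library 1 or wild-type library 3, ranging from −0.0129 to 0.00468, and without batch 1 (0.00810). The number of genes called was 199, against 360 with total counts, 464 with no low-count filter and 115 with a mean count of at least 50. Without 1 library it was 152 to 280. TMM gave 84.9% of calls higher and total counts 31.9%. With total counts that share was 11.9% of 1159 calls without mutant library 3 and 65.9% of 208 without wild-type library 3. It was 62.5% of 208 without mutant library 1 and 56.5% of 193 without mutant library 2.

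With total counts Hba-a1 and Hba-a2 had −0.040 and −0.044, Slc25a37 had −0.012 and Alas2 had −0.10 on the log2 scale. Hbb-bs missed the threshold with RLE scaling (0.70), with globin genes removed from scaling (0.68), with batch as a term (replicate block; 0.62) and without batch 1 or 2 (0.55 and 0.69), and ranged from 0.58 to 0.87 without 1 library. With total counts it ranged from 0.093 to 0.13 without 1 library. The 3 others (Hba-a1, Hba-a2, Hbb-b1) passed with no low-count filter (0.52, 0.51 and 0.58) and without batch 3 (0.69, 0.68 and 0.74), and Hbb-b1 with DESeq2 (0.60). Without 1 library they ranged from 0.43 to 0.71, 0.43 to 0.70 and 0.50 to 0.76. Nxf1 changed sign without wild-type library 3 or batch 3 (0.077), ranging from −0.35 to 0.011 without 1 library, on few counts. The causes were not tested. In edgeR, batch as a term changed no other member's call, and in DESeq2 it ended that of Hbb-b1 (0.59). Depth did not limit the globin values, whereas 3 libraries per group limit every permutation test.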
